A study of Mus musculus with 12 samples.

Results

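Embryonic neocortex that lacks the transcription factor NFIB was compared with the neocortex of wild types from the same mouse line. The tissue was microdissected at embryonic day 16, and the comparison used 6 of the 12 libraries of the series, 4 labelled homozygous Nfib knockout and 2 wild type, all of the strain Nfib{tm1Rmg}(C57BL/6) by the labels. The 2 wild-type libraries of the strain Nfia{tm1Rmg}(C57BL/6), also at embryonic day 16, were used as a check of direction. The groups follow titles and strain, since the growth protocol writes the Nfia allele 2 times and never the Nfib allele. Neither a Cre driver nor the deleted exons are named, and nothing ties a library to an embryo or litter, so deposited p-values may measure technical spread.

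The deposited table gives 1 average per gene and group in FPKM, fragment counts scaled to transcript length and to the mapped fragments of a library. It holds no value per library, which leaves the spread within a group and the depth unknown. The members were the rows at 1 FPKM or more in either group, without rows listed at 0 in one group and above 50 FPKM in the other. This left 12457 of 23352 rows, of which 12430 had a p-value under 1 and count as tested. The fold was the log2 of the knockout average over the own wild-type average after adding 0.1 FPKM to each, which understates the change of low genes. A gene was called higher or lower where the authors' q-value was under 0.05. A gene under 1 FPKM in one group passed the filter only through the other, so it could be called in 1 direction only. The only look at variation among controls is the difference between both wild-type averages, which also holds any difference of line, sex or dissection. Its median size on the log2 scale was 0.18 at 1 to 5 FPKM and 0.10 at 20 to 100 FPKM, and 95% of genes lay within 0.75 and 0.35. In tissue averages, fewer cells of a type and less RNA per cell cannot be told apart.

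NFIB belongs to the nuclear factor I (NFI) family, whose members bind as dimers to a palindromic DNA motif and can raise or lower transcription. In the dorsal forebrain NFI proteins are known for moving radial glia, the stem cells of the cortex, from self-renewal towards making intermediate progenitors, neurons and later glia. Mice without NFIB are known to lack a normal corpus callosum and to form a reduced hippocampus.

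The targeted gene matched the labels. Nfib stood at 9.12 FPKM in the knockouts, 134 in their own wild types and 190.2 in the Nfia-line wild types, so that the knockouts kept 6.81% of the own wild-type level. Its log2 fold was -3.86 against own wild types and -4.37 against the other wild types. Nfia rose (log2 fold 1.16), with 54.4 FPKM in the knockouts above 24.3 and 33.7 FPKM in the 2 wild-type averages. The other family members did not pass the threshold: Nfix stood at 144 FPKM against 163 in own wild types and Nfic at 6.37 against 6.71. Markers of dorsal neurons were present in every group, Neurod6 at 550.0 FPKM in the knockouts and 424 in own wild types, and Emx1 at 34.0 and 31.7.

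Of 12430 tested genes, 683 (5.49%) passed the threshold in the Nfib knockouts, 280 higher (2.25%) and 403 lower (3.24%). These shares of higher and lower genes are the background for every list count below. Falls were larger than rises. A change of 2-fold or more was found for 168 of the lower and 35 of the higher genes, and one of 4-fold or more for 38 and 6. Of the 280 higher genes, 254 also stood above the Nfia-line wild types, and 344 of the 403 lower genes also stood below them. Those joint counts are 2.04% and 2.77% of tested genes. Most called genes thus stood outside both averages, and counts of list members that did so are to be read beside this. Both folds use the same knockout average, so keeping direction is partly built in. Without any call, the knockout average lay above both wild-type averages for 28.3% of tested genes and below both for 34.7%. The smallest q-value in the authors' deposited table, 0.00207, was shared by 321 of the called genes, Nfib among them. The median log2 fold of called genes shrank from 0.64 to 0.35 for higher genes and from -0.93 to -0.42 for lower genes when the Nfia-line wild types were the control. The median over all tested genes was -0.021 and -0.0062. A change of 1.5-fold or more against each wild-type average was seen for 62 higher and 133 lower genes.

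**Figure D1:**
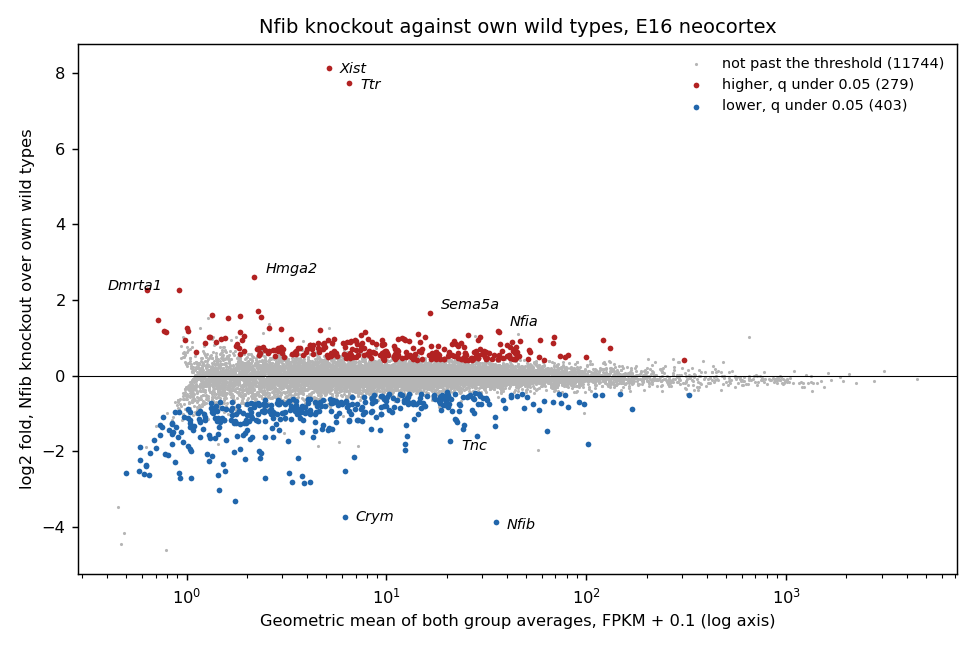
Log2 fold of the Nfib knockout average over its own wild-type average (vertical axis) against the geometric mean of both averages in FPKM + 0.1 (horizontal log axis), 1 point per tested gene not listed at 0. Red points are higher and blue points lower at the authors' q under 0.05. Nfib lies at -3.86, Nfia at 1.16, and the isolated rises of Xist and Ttr at 8.13 and 7.73.

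Transcripts of the sex chromosomes differed between the groups, and the labels give no sex. Xist, the RNA that coats the inactive X chromosome, stood at 0.207 FPKM in the own wild types, 86.0 in the knockouts and 161 in the Nfia-line wild types. The Y-linked Ddx3y went the other way, with 11.5, 5.89 and 0.0330 FPKM. Own wild types thus held Y-linked RNA and almost no Xist, the Nfia-line wild types the reverse, and the knockouts both. An effect of sex and one of genotype cannot be told apart, in sex-linked genes or in others. The check against the Nfia-line wild types has the same limit. Among genes that RefSeq places on an autosome, 251 higher and 370 lower were called.

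Genes named by rank are called genes whose direction was the same against both wild-type averages. Wherever a pair of wild-type values, medians or folds is given, the first refers to the own wild types and the second to the Nfia-line wild types. The largest rises outside the choroid plexus genes described further on included genes of early neural progenitors. Hmga2, which encodes a chromatin protein of young neural stem cells, stood at 5.31 FPKM in the knockouts, 0.781 in own wild types and 2.03 in the other wild types, a log2 fold of 2.62. Dmrta1, a doublesex-related transcription factor of cortical progenitors, stood at 1.91, 0.321 and 0.549 FPKM (log2 fold 2.26). Both knockout averages were above 2 wild-type averages that themselves differed. Sema5a, a transmembrane semaphorin that guides axons, rose from 9.15 to 29.2 FPKM and was at 15.5 in the Nfia-line wild types. Neurog1, a proneural factor, rose from 0.977 to 3.11 FPKM, with 1.27 in the other wild types. Hmga2, Dmrta1 and Neurog1 were under 1 FPKM in own wild types, so they could only be called higher. The remaining large rises had log2 folds of 1.70 for Ttc7, a tetratricopeptide repeat gene, and 1.47 for Sytl5, a synaptotagmin-like gene. The uncharacterised A330048O09Rik, 4833418N02Rik and 9930013L23Rik had log2 folds of 1.61, 1.56 and 1.52.

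Nfib itself was the largest fall. Crym, whose protein crystallin mu binds thyroid hormone, had the second largest fall among called genes, a log2 fold of -3.74, but its wild types differed widely, at 22.5 and 3.56 FPKM against 1.59 in the knockouts. Tcerg1l, a relative of a transcription elongation regulator, stood at 1.17 FPKM in the knockouts against 8.83 and 7.45 in the 2 wild-type averages. Here the wild types lay close together, and the log2 fold was -2.81 against own wild types and -2.57 against the others. Slc26a7, an anion transporter, likewise had wild types that lay close together, with 0.161 FPKM in the knockouts, 1.52 in own wild types and 1.34 in the others. Htr3a, a serotonin receptor subunit of interneurons, fell from 5.41 to 0.457 FPKM, with 1.94 in the Nfia-line wild types. Slc26a7 and Htr3a passed the filter only through the own wild types and could only be called lower. The falls of Htra1, a secreted protease, and Gdpd2, a glycerophosphodiesterase, were smaller against the Nfia-line wild types, with log2 folds of -3.03 and -2.70 turning into -1.01 and -0.40. The rest of the 12 were Rxrg, Tac1, Scrg1, Bcan and Six3, which come up with their gene groups. Chosen after their values were seen, Gucy1a3 and Gucy1b3, which encode subunits of soluble guanylate cyclase, the receptor for nitric oxide, fell. Gucy1a3 stood at 16.3, 49.2 and 47.0 FPKM in knockouts, own and Nfia-line wild types, and Gucy1b3 at 14.6, 32.5 and 30.7.

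**Figure D2:**
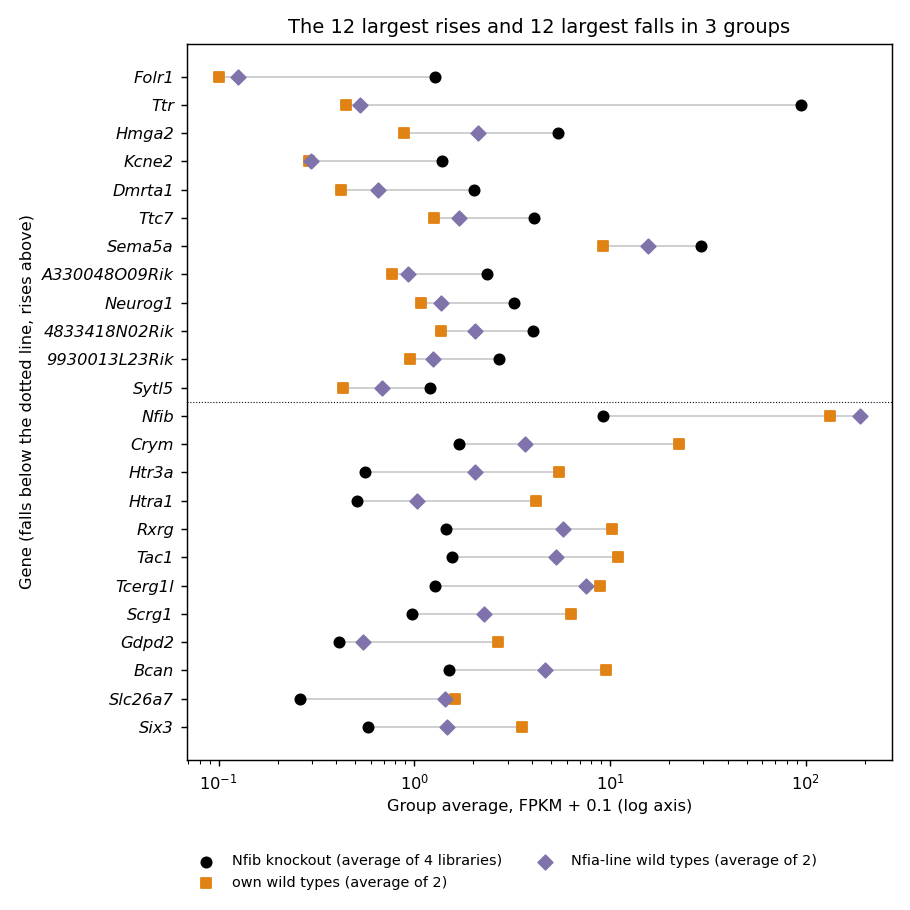
Group averages in FPKM + 0.1 (log axis) of the 12 largest rises and 12 largest falls with the same direction against both wild-type averages; each symbol is 1 group average without an error, since no values per library were given. The knockout symbol lies outside both wild-type symbols in all 24 genes because they were chosen that way. The wild-type symbols lie close together for Tcerg1l and Slc26a7 and far apart for Crym.

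Progenitor genes gave more rises than falls. Among genes of early progenitor timing 4 of 13 tested members were higher and 1 lower, with a median log2 fold of 0.37 (0.32 against the Nfia-line wild types). Of the higher members, Hmga2 and Dmrta1 passed the filter only through the knockouts and could only be called higher. Besides Hmga2 and Dmrta1, the higher members were Plagl1, an imprinted zinc finger gene, at 38.3 FPKM against 24.5 and 27.4, and Igf2bp2, an RNA-binding protein gene. Igf2bp2 at 23.7 FPKM was above the 13.6 of own wild types but close to the 22.1 of the others. Hmga1 and Lin28b, other genes of young progenitors, did not pass the threshold (log2 folds -0.15 and 0.18). Of 28 tested radial glia genes 7 were higher and 4 lower, and their median was 0.036 against own and 0.33 against Nfia-line wild types.

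The radial glia members that rose were mainly transcription factors. Sox3, a SOX factor that keeps progenitors undifferentiated, stood at 12.5 FPKM in the knockouts, 7.09 in own wild types and 7.15 in the others. Its relative Sox21 stood at 9.49, 5.25 and 6.24, and Pax6, the homeobox factor of dorsal radial glia, at 30.4, 19.9 and 23.6. Nr2e1, an orphan nuclear receptor of neural stem cells, had a log2 fold of 0.66. All of these knockout averages exceeded both wild types. General radial glia transcripts were close to own wild types and did not pass the threshold: Fabp7, a fatty acid binding protein gene, at 580.3 against 592 FPKM, Vim, an intermediate filament gene, at 218 against 219, and Sox2 at 34.8 against 33.9. The 4 lower members were the matrix gene Tnc, Mfge8, the cytokine receptor gene Lifr and the LIM homeobox gene Lhx2, with log2 folds of -1.73, -1.40, -0.78 and -0.48. For Lifr the wild types nearly coincided, 3.13 and 3.04 FPKM against 1.78 in the knockouts.

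Of 22 tested proneural and intermediate progenitor genes 5 were higher and 1 lower, with a median log2 fold of 0.28 (0.26). The higher members included Neurog1, which passed the filter only through the knockouts. Neurog2, which drives progenitors to a glutamatergic fate, stood at 57.6 FPKM against 34.1 and 41.0. Elavl4, an RNA-binding protein gene of young neurons, stood at 65.0 against 41.8 and 50.8, and Tmem178 and Rhbdl3 had log2 folds of 0.63 and 0.61. Eomes, the defining factor of intermediate progenitors, did not pass the threshold at 43.7 against 37.0 and 40.4 FPKM. The small GTPase gene Rnd2, which acts in the migration of newborn neurons, rose from 87.2 to 167 FPKM (113 in the other wild types). It was 1 of 2 higher among 24 reelin and migration genes, with none lower, a median of 0.032 and Nde1, a centrosomal gene, as the other.

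Every called cell cycle gene of the 3 lists was higher. Mitosis genes gave 8 of 27 tested members higher and 0 lower, and all 27 knockout averages stood above both wild-type averages, which held for 28.3% of all tested genes. Their median log2 fold was 0.42 (0.26 against the Nfia-line wild types). Ect2, a cytokinesis gene, had 12.2 FPKM against 7.75 and 9.52, and the spindle kinase gene Plk1 had 13.6 against 9.12 and 9.78. Of 21 DNA replication genes 3 were higher and 0 lower, Mcm2 of the replicative helicase, the nucleotide reductase gene Rrm2 and Uhrf1, which helps copy DNA methylation, with log2 folds of 0.45, 0.48 and 0.45; the knockout averages of 20 members stood above both wild types. Of 21 G1 cyclins, CDKs and CDK inhibitors 4 were higher and 0 lower. They included the retinoblastoma family genes Rb1 (0.42) and Rbl1 (0.60), which restrain entry into S phase, and the repressor gene E2f8 (0.63). The fourth, Cdk6, was at 5.76 FPKM against 3.44 in own wild types but 5.77 in the Nfia-line wild types. Among 32 chromatin and DNA methylation enzymes 1 was higher, Uhrf1, and 0 lower, with medians of 0.13 and -0.031.

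Co-receptors of the Hedgehog pathway and the factors Gli2 and Gli3 rose, and the target Gli1 fell. Of 14 tested members 5 were higher and 1 lower, with a median log2 fold of 0.14 (0.23). Cdon, Boc and Gas1 encode surface proteins that bind the ligand, and they stood at 37.2, 15.8 and 25.3 FPKM in the knockouts against 17.5, 10.8 and 16.4 in own wild types. The Nfia-line wild types were at 25.6, 12.2 and 22.8, so that all 3 were above both. Gli3, mainly a repressor of target genes in the dorsal forebrain, stood at 13.1 FPKM against 6.71 and 8.47, and Gli2 had a log2 fold of 0.57. Gli1, a direct target used as a readout of signalling, fell from 1.48 to 0.415 FPKM (0.551 in the others). As Gli1 passed the filter only through the own wild types, it could only be called lower. The receptor gene Ptch1, likewise a target, did not pass the threshold, with 5.0 against 5.17 FPKM.

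Notch genes gave 2 of 28 tested members higher (7.14%) and 1 lower (3.57%), a median of 0.063. The lower share was near the 3.24% of all tested genes, of which 2.25% were higher. Rbpj, the DNA-binding partner of Notch, had a log2 fold of 0.45, and Dner, a ligand-like gene of neurons, one of 0.55, while the lower member was the imprinted Dlk1 (-0.85). The target genes Hes1 and Hes5 did not pass the threshold (0.55 and -0.30). No FGF pathway gene was called by the authors' q-values among 23 tested (3 at an unadjusted p under 0.05), the most abundant being Fgf13 at 47.7 against 47.3 FPKM and Dusp4 at 32.6 against 37.0.

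In the Wnt pathway, the called ligand and R-spondins fell, and Frizzled receptors went both ways. Of 33 tested members 5 were higher and 7 lower, with a median of -0.044. All 12 were also outside both wild types, as were 254 of all 280 higher and 344 of all 403 lower genes. The lower members included the ligand Wnt5a (-1.62) and the R-spondins Rspo1 (-2.56) and Rspo2 (-1.25), secreted enhancers of Wnt signalling, together with the R-spondin receptor Lgr4 (-1.10) and the Frizzled receptor Fzd9 (-0.99). Rspo1 and Wnt5a were far lower in the Nfia-line wild types, at 0.198 and 1.5 FPKM, than in the own wild types, at 1.11 and 3.64, and the knockouts stood at 0.106 and 1.12. Rspo1 passed the filter only through the own wild types and could only be called lower. The higher members were the Frizzled receptor genes Fzd2 and Fzd8, the secreted modulator Sfrp1, the transcription factor Tcf7l1 and the feedback gene Nkd1. Fzd8 stood at 12.9 FPKM in the knockouts against 7.21 and 7.91, Tcf7l1 at 6.03 against 3.23 and 3.33, and Sfrp1 at 63.9 against 33.8 and 45.5. The wild types of Fzd8 and Tcf7l1 lay close together. Apcdd1, a membrane inhibitor of Wnt signalling outside the list and chosen after its values were seen, rose from 30.9 to 57.9 FPKM (31.5 in the others).

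BMP and TGF-beta genes gave 4 of 37 tested members higher and 4 lower, a median of -0.043. Each share was 10.8%, against 2.25% higher and 3.24% lower of all tested genes. ID proteins block basic helix-loop-helix factors and moved in opposite directions. Id4 stood at 49.6 FPKM against 27.7 and 25.4, and Id2 at 358 against 267 and 277, both higher. Id3 was lower at 5.06 FPKM against 13.6 in own wild types, while the Nfia-line wild types had 5.48. The receptor gene Bmpr1b rose (log2 fold 0.97), and Bmpr2 rose against own wild types (0.48) but reversed against the others (-0.21). The decoy receptor Bambi, the antagonist Chrd and the ligand Tgfb2 were lower, at -0.95, -0.71 and -0.91.

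Of 13 tested retinoic acid genes 5 were lower, all 5 below both wild types, and none was called higher, with a median of -0.31 (-0.089). Retinoic acid is a vitamin A derivative that acts through RAR and RXR nuclear receptors. The receptor Rxrg stood at 1.35 FPKM in the knockouts, 10.2 in own and 5.66 in Nfia-line wild types, and Rarb at 1.06, 4.67 and 3.33. The widely expressed receptors Rara and Rxra did not pass the threshold (-0.16 and -0.19). Crabp1, an intracellular binding protein, stood at 2.49, 14.7 and 5.09 FPKM, and the retinal reductase Dhrs3 at 0.819, 4.11 and 2.69. Dhrs3 passed the filter only through the own wild types and could only be called lower. Cyp26b1, which degrades retinoic acid, stood at 1.05 FPKM against 4.51 in own wild types, but the 1.05 of the Nfia-line wild types nearly equalled the knockouts. Rarb also belongs to the list of ventral forebrain factors, many of which fell in the same comparison.

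Thyroid hormone genes gave 4 of 10 tested members lower and 1 higher, a median of -0.37. Dio2, the deiodinase that activates the hormone, stood at 0.142 FPKM against 1.29 and 0.840. It passed the filter only through the own wild types and could only be called lower. The transporter gene Slco1c1 stood at 2.98 against 8.25 and 6.02. The higher member was Ttr, a hormone carrier of the choroid plexus. The receptor gene Thra did not pass the threshold (-0.22).

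Called genes of glia were mostly lower, but the size of the fall depended on the wild types. Of 27 tested astrocyte genes 11 were lower and 1 higher, and 6 of the 11 were also below the Nfia-line wild types. The median log2 fold turned from -0.24 against own wild types to 0.33 against the others. The own wild types stood a median of 0.61 above the Nfia-line wild types on the log2 scale in these genes. Members below both were Scrg1, Bcan, Dio2, Hepacam, Apoe and Clu, of which Clu was nearly level with the Nfia-line wild types (-0.019). Brevican (Bcan), a matrix proteoglycan, had 1.40 FPKM in the knockouts, 9.39 in own wild types and 4.57 in the others, and Scrg1 had 0.869, 6.20 and 2.17. Scrg1 and Dio2 passed the filter only through the own wild types and could only be called lower. Gja1, the gap junction gene of astrocytes, was lower against own wild types and reversed against the others, with 4.58, 9.29 and 3.4 FPKM. Slc15a2, a peptide transporter of astrocytes, was the higher member, with 7.17 FPKM against 3.86 and 4.55. The mature marker Gfap was under 1 FPKM in all 3 groups. Oligodendrocyte lineage genes gave 3 of 15 tested members lower, all below both wild types, and 1 higher, with medians of -0.54 and -0.13. Olig1 stood at 4.88 FPKM against 11.3 and 7.56, and Lhfpl3, the higher member, at 6.78 against 4.47 and 4.75.

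**Figure D3:**
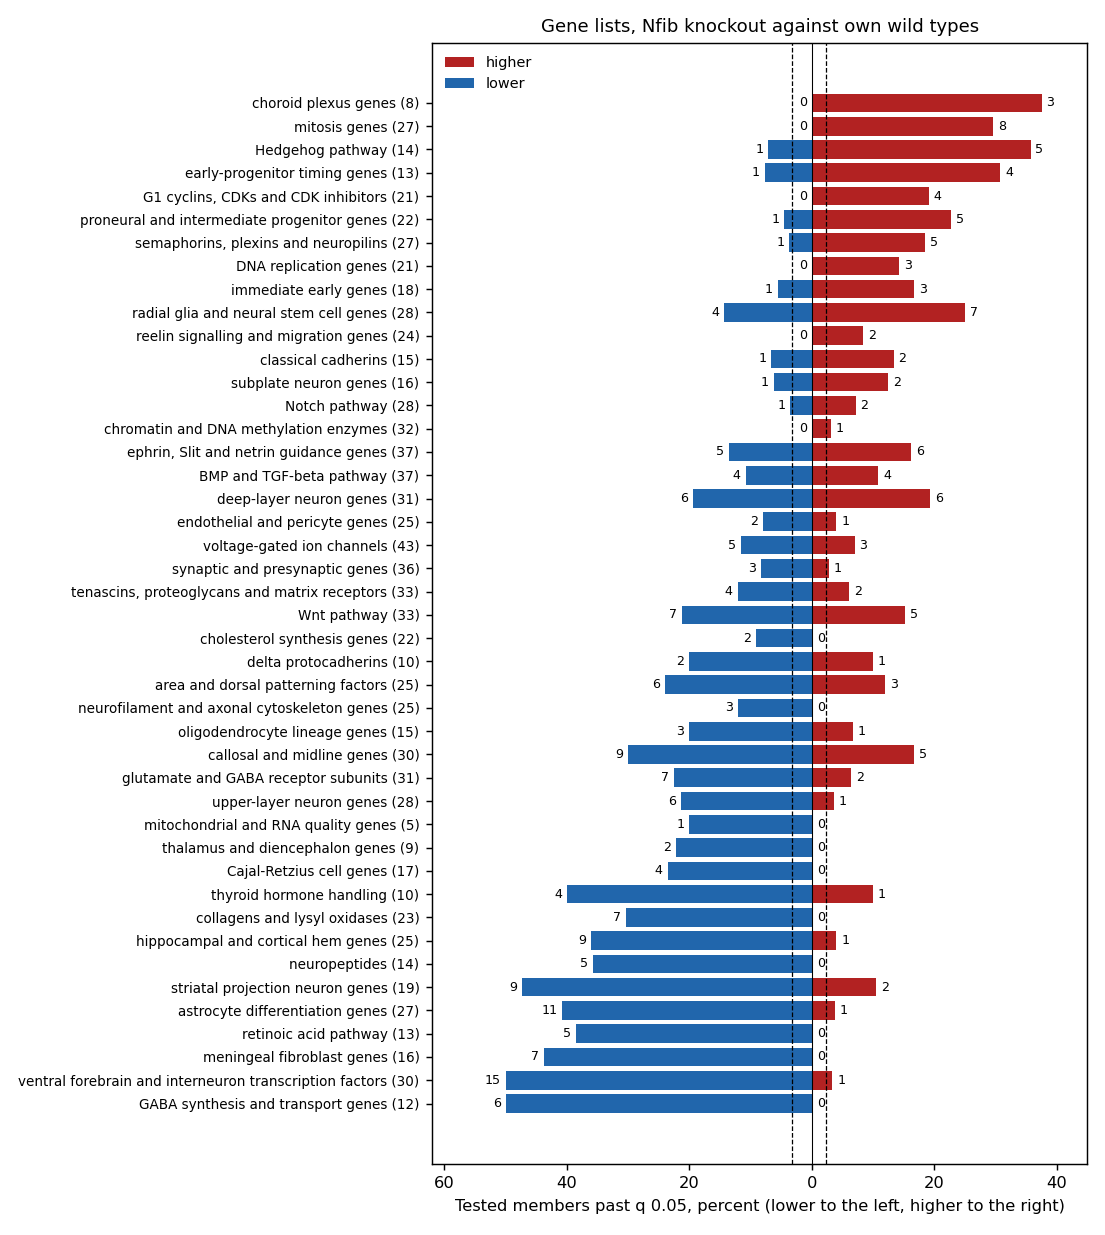
Share of tested members called higher (red, to the right) and lower (blue, to the left) at the authors' q under 0.05, in percent. Each gene list with a call is shown except the sex-linked and NFI family lists. Numbers at the bars are counts and numbers in brackets tested members. Dashed lines mark the shares over all tested genes, 2.25% higher and 3.24% lower. Choroid plexus, mitosis and Hedgehog genes stand at the top, and GABA, ventral forebrain and meningeal genes at the bottom. The called choroid plexus genes passed the 1 FPKM filter only through the knockouts and could only be called higher. Some called genes of other lists likewise passed it through 1 group only.

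Among neurons of the cortical layers, calls went both ways. Upper-layer genes gave 6 of 28 tested members lower and 1 higher, all 6 below both wild types, and the median was -0.14 (-0.27 against the others). Dok5, an adaptor gene, stood at 24 FPKM against 51 and 50.1, and Bhlhe22, a helix-loop-helix factor of area identity, at 53.3 against 86.4 and 83.3. Pou3f1, a POU factor, stood at 11.9 against 19.5 and 20.7. In these 3 genes the wild types nearly coincided. Of 31 tested deep-layer genes 6 were higher and 6 lower, a median of -0.086. S100a10, a marker of corticospinal neurons, stood at 21.9 FPKM against 54.9 and 43.6, and the corticothalamic genes Tle4, a corepressor, and Syt6, a synaptotagmin, at 22 and 6.04 against 34.0 and 11.6 in own and 37.0 and 14.3 in Nfia-line wild types. Higher members included Tbr1 and Sox5, factors of early-born neurons, at 170.5 and 81.1 FPKM. Own wild types were at 102 and 41.9 and the others at 155 and 64.1, so that the rise of Tbr1 was small against the latter (0.14).

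Subplate genes, of the earliest-born cortical neurons, gave 2 of 16 higher (12.5%) and 1 lower (6.25%), against 2.25% and 3.24% of all tested genes. Nr4a2, a nuclear receptor of these cells, stood at 39.9 FPKM against 20.7 and 23.7, and Lpar1, a lysophosphatidic acid receptor gene, at 6.77 against 4.28 and 4.85. Cdh18, an adhesion gene, was the lower member (-0.86). Nr4a3, a relative of Nr4a2, went the opposite way, at 3.19 FPKM against 14.4 and 8.69. Cajal-Retzius genes gave 4 of 17 lower and none higher, a median of -0.38 that was 0.051 against the others. Car10 and Spock1 were below both wild types (-1.44 and -0.48). Cxcr4 was lower than own wild types (-0.77) and nearly level with the others (-0.034). Snhg11, a non-coding RNA gene, was at 14.6 FPKM against 33.3 and 14.1.

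Genes of patterning and medial cortex were often lower. Area and dorsal patterning factors gave 3 of 25 tested members higher and 6 lower, a median of -0.091. Lmo4, a LIM-only gene, stood at 42.1 FPKM against 78.6 and 56.5, and Lix1 was higher at 31.6 against 17.4 and 20.1. Nr2f2 was lower against own wild types at 6.57 against 23.0 FPKM and level with the others at 6.22. Hippocampal and cortical hem genes gave 9 of 25 tested members lower and 1 higher, the latter Ttr, with a median of -0.58 (-0.13). Prox1, the homeobox factor of dentate gyrus granule cells, stood at 0.576 FPKM against 3.32 and 0.973. It passed the filter only through the own wild types and could only be called lower. Lhx9 and Zic2 were lower against own wild types (-1.93 and -0.74) and reversed against the others (0.60 and 0.28).

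Transcription factors of the ventral forebrain gave 15 of 30 tested members lower, 13 of them also below the Nfia-line wild types, and 1 higher. The median was -0.75 (-0.34). Isl1, a LIM homeobox factor of striatal neurons, stood at 0.993 FPKM against 4.84 and 2.60, and the homeobox gene Six3 at 0.477 against 3.46 and 1.37. The strand of the reads is not given, so reads of Six3 and of an antisense neighbour cannot be told apart. Nkx2-1, of the medial ganglionic eminence, stood at 0.223 against 1.24 and 0.457. Dlx2 and Dlx5, homeobox factors of interneurons, stood at 10.4 and 6.51 FPKM against 17.6 and 13.2 in own and 11.9 and 7.88 in Nfia-line wild types. The own wild types were the highest of the 3 groups for all of these genes. Isl1, Six3 and Nkx2-1 passed the filter only through the own wild types and could only be called lower. The higher member was Sox6 (0.45), a factor that dorsal progenitors also express. Striatal projection neuron genes gave 9 of 19 tested members lower, all 9 below both wild types, and 2 higher, with medians of -0.56 and -0.50. The dopamine receptor gene Drd2 stood at 0.689 FPKM against 2.35 and 1.38, and could likewise only be called lower.

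GABA genes followed, with 6 of 12 tested members lower and none higher. The synthetic enzyme Gad1 stood at 15.8 FPKM against 25 in own and 16.5 in Nfia-line wild types, so its log2 fold of -0.66 came to -0.065 against the latter. The list median went from -0.53 to -0.07. Neuropeptide genes gave 5 of 14 lower and none higher. Tac1, which encodes substance P, stood at 1.46 FPKM against 10.9 and 5.20, Npy at 38.2 against 105 and 69.3, and Adcyap1, the PACAP gene, at 2.75 against 5.40 and 4.73. Penk and Pnoc, opioid family peptide genes, were lower than own wild types (-1.29 and -1.42) and nearer to the others (-0.34 and -0.087). The neuropeptide median was -0.83 and 0.035. Genes of thalamus and diencephalon gave 2 of 9 lower, Lhx9 and Six3, and none higher, with medians of -0.44 and 0.0016. The share of ventral tissue in each dissection was not measured, and its part in these falls was not tested.

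Guidance genes were called in both directions. Semaphorins and their receptors gave 5 of 27 tested members higher, all above both wild types, and 1 lower, a median of -0.054. Sema5a was joined by Sema6d at 29.7 FPKM against 16.5 and 20.9 and by Sema5b (0.45). The plexin receptor genes Plxna2 and Plxna4 rose by 0.52 and 0.68 on the log2 scale against own wild types and differed by 0.14 and 0.0011 from the others. Nrp1, the semaphorin co-receptor of callosal axons, was the lower member, at 25.3 FPKM against 42.2 and 31.6. Ephrin, Slit and netrin genes gave 6 of 37 higher and 5 lower, a median of -0.06. The netrin receptor Dcc and the secreted Ntn4 were higher (0.79 and 0.87), and Ntn1 was lower at 1.16 FPKM against 2.91 and 2.34. Slit2 was lower against both wild types, but Slit3 only against own wild types (-1.04 and 0.60). Among Eph genes, Epha5, Epha3, Efnb1 and Efnb2 were higher, at 0.71, 0.52, 0.61 and 0.51, and the receptor Epha8 and the ligand Efna5 lower, at -1.01 and -0.76. Genes of the corpus callosum and midline, a list that overlaps these and holds Nfia and Nfib, gave 5 of 30 higher and 9 lower. Its member Alcam, an adhesion gene of growing axons, stood at 42.0 FPKM against 20.5 and 26.5, and Gap43, the growth cone gene, at 275 against 392 and 298.

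Among adhesion and matrix genes, the list of collagens and lysyl oxidases gave the most calls, all lower. Of 15 classical cadherins 2 were higher and 1 lower, Cdh6 at 10.7 FPKM against 5.08 and 7.65, Cdh4 (0.80) and, lower, Cdh18. Of 10 delta protocadherins 1 was higher and 2 lower, Pcdh10 (0.46) against Pcdh7 and Pcdh17 (-0.49 and -0.63). Higher and lower shares were 13.3% and 6.67% of cadherins and 10% and 20% of protocadherins, against 2.25% and 3.24% of all tested genes. Proteoglycan and matrix receptor genes gave 2 of 33 higher and 4 lower. Fibronectin (Fn1) and the glypican Gpc4 rose (0.83 and 0.56), and tenascin C (Tnc), a matrix protein of radial glia, stood at 11.3 FPKM against 37.8 and 25.2. Collagen and lysyl oxidase genes gave 7 of 23 lower and none higher, 4 of them below both wild types. The called Col1a1, Col1a2 and Col3a1 stood above the Nfia-line wild types (log2 folds 0.26, 0.23 and 0.12). Loxl1, which crosslinks elastin, stood at 0.552 FPKM against 3.62 and 2.90, and Col12a1 and Col15a1, minor collagens, at 1.06 and 1.14 against 3.22 and 2.39 in own and 2.1 and 2.70 in Nfia-line wild types.

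Genes of axons, synapses and excitability were mostly not called, like most tested genes, but falls exceeded the 3.24% of all tested genes. Lower were 22.6% of receptor subunits, 12% of neurofilament and axonal genes, 11.6% of voltage-gated channels and 8.33% of synaptic genes. In the same order 6.45%, 0%, 6.98% and 2.78% were higher, against 2.25% of all tested genes. Neurofilament and axonal genes gave 3 of 25 lower and none higher. The light and medium neurofilament genes Nefl and Nefm stood at 6.13 and 5.56 FPKM against 24.3 and 15.2 in own and 13.4 and 11.0 in Nfia-line wild types, below both. Synaptic genes gave 1 of 36 higher and 3 lower, Slc17a7, the vesicular glutamate transporter of cortical neurons, being higher at 34.7 FPKM against 23.8 and 22.9. Camk2b, a synaptic kinase gene, was lower at 60.9 against 108 and 89.1. Receptor subunits gave 2 of 31 higher and 7 lower. Metabotropic glutamate receptors Grm2 and Grm3 were lower (-0.94 and -0.81), as were the GABA receptor subunits Gabra2 and Gabra4 (-1.16 and -1.20), while Gria3, an AMPA receptor subunit, was higher (0.71). Grin2b, the NMDA receptor subunit of young neurons, rose against own wild types (0.65) and reversed against the others (-0.35). Voltage-gated channels gave 3 of 43 higher and 5 lower. Kcna3, a potassium channel, stood at 11.6 FPKM against 5.14 and 8.47, Cacna2d3, a calcium channel subunit, at 3.19 against 8.57 and 5.56, and Kcnq5 at 3.29 against 5.83 and 7.27. Kcnq3 was higher than own wild types (1.09) and level with the others (-0.034).

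Markers of neighbouring tissues moved in this comparison. Choroid plexus, the epithelium that makes cerebrospinal fluid, had 22 listed genes, of which 8 were tested, 3 higher and none lower, with a median over the 7 not listed at 0 of 0.48. Ttr stood at 94.8 FPKM in the knockouts against 0.346 and 0.425 in the 2 wild-type averages, and Kcne2 at 1.28 against 0.188 and 0.195. Folr1 stood at 1.18 FPKM and was listed at 0 in the own wild types and at 0.0262 in the others. All 3 were under 1 FPKM in both wild-type averages, so they passed the filter only through the knockouts and could only be called higher. Their share of the list is therefore not comparable with the share over all tested genes. The summed level of the 8 genes was 109.5 FPKM in the knockouts, 12.2 in own wild types and 11.2 in the others, and Ttr alone gave 94.8 of the first sum. The defining markers Kl, Clic6 and Kcnj13 were under 1 FPKM in all 3 groups, at 0.0345, 0.898 and 0.164 in the knockouts. Without values per library it cannot be said how many of the 4 knockout libraries carried this RNA.

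Meningeal fibroblast genes gave 7 of 16 tested members lower and none higher, but only 1 of the 7 was below the Nfia-line wild types. Their median was -0.30 against own and 0.21 against Nfia-line wild types. Col1a1, the main fibroblast collagen, stood at 0.430 FPKM in the knockouts, 1.99 in own wild types and 0.342 in the others, and the proteoglycan gene Dcn at 0.274, 2.13 and 0.247. The own wild types were the highest group for both genes, which passed the filter only through them and could only be called lower. The list sum does not follow, at 1825, 1744 and 1422 FPKM, since Nnat, a neuronal gene that did not pass the threshold, makes up most of it. Endothelial and pericyte genes gave 1 of 25 higher (4%) and 2 lower (8%), with medians of -0.13 and 0.17. Over all tested genes the shares were 2.25% and 3.24%. No microglia gene was called by the authors' q-values among 15 tested (0 at an unadjusted p under 0.05), with the complement gene C1qb at 5.03 against 5.92 FPKM. The part of meningeal and choroid plexus RNA in other changes was not tested.

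**Figure D4:**
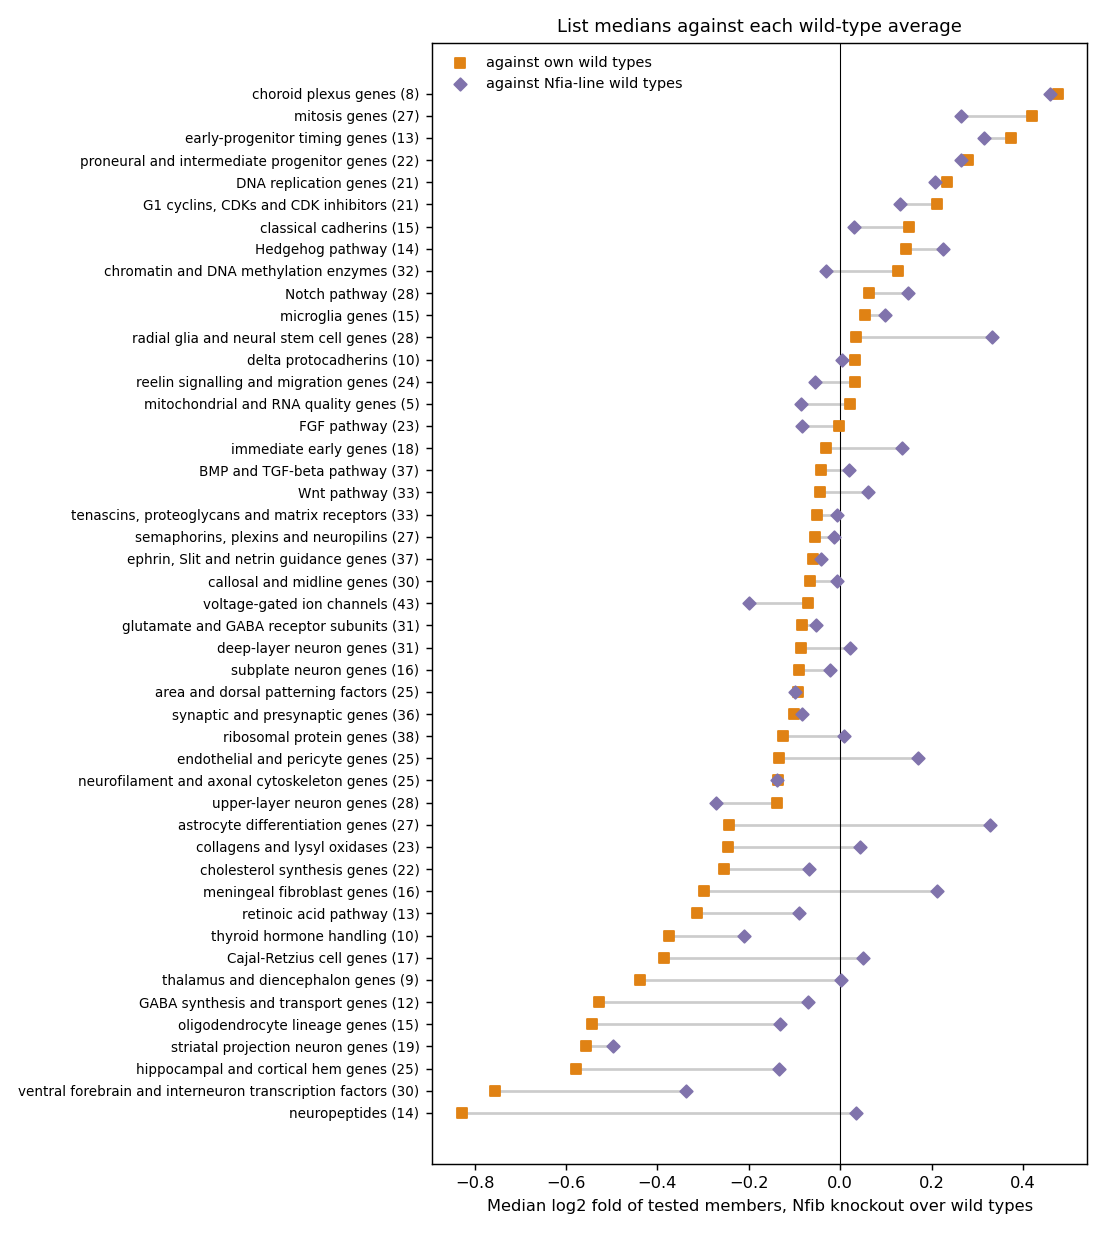
Median log2 fold of the tested members of each list except the sex-linked and NFI family lists. The Nfib knockout average was taken over its own wild types (orange squares) and over the Nfia-line wild types (purple diamonds), with tested members in brackets. No error is drawn, since 1 average per group was given. Mitosis genes lie to the right of 0 in both (0.42 and 0.26), striatal genes to the left in both (-0.56 and -0.50), and astrocyte genes on opposite sides (-0.24 and 0.33).

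No ribosomal protein gene was called by the authors' q-values among 38 tested (0 at an unadjusted p under 0.05), with a median of -0.12 against own wild types, 0.0081 against the others and Rplp1 and Rpl38 as the most abundant, at 1079.7 and 1106 FPKM against 1330.1 and 1371. Cholesterol synthesis genes gave 2 of 22 lower, Fdps and Mvd (-0.51 and -0.51), and none higher, with a median of -0.25 (-0.069). The lower share was 9.09%, against 3.24% of all tested genes. Immediate early genes gave 3 of 18 higher, Klf4, Nr4a2 and Jun, and 1 lower, Nr4a3, with Klf4 at 2.54 FPKM against 1.26 and 1.12. Of 5 RNA quality genes 1 was called, the imprinted non-coding Meg3 (-0.88), and the ribosomal RNA precursor Rn45s stood at 561 against 517 FPKM.

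Genes around Nfib were called at a higher rate than genes elsewhere, a pattern chosen after the values were seen. Among the 25 tested genes on either side of Nfib on chromosome 4, in the gene order of RefSeq, 11 of 50 passed the threshold, 8 higher and 3 lower, or 22% against 5.49% of all tested genes. With 10 genes on either side it was 5 of 20, with 50 it was 15 of 100 (15%) and with 100 it was 20 of 200 (10%), while 28 of 627 (4.47%) were called among the genes of the chromosome more than 50 places from Nfib. All 11 kept their direction against the Nfia-line wild types, as did 26 of the 28 called genes more than 50 places away. They included Tnc, Dmrta1, the centrosomal gene Cdk5rap2, the polarity gene Mpdz, next to Nfib on one side, and Whrn, which encodes the scaffold protein whirlin. The tested gene next to Nfib on the other side, Zdhhc21, did not pass the threshold (0.17). Whrn stood at 3.74 FPKM in the knockouts against 7.22 and 7.67 in wild types that lay close together. Snapc3, of the complex that transcribes small nuclear RNA genes, stood at 39.0 against 25.3 and 28.7, and Slc24a2, a sodium and calcium exchanger gene, at 1.73 against 0.808 and 0.950. The cause was not tested.

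**Figure D5:**
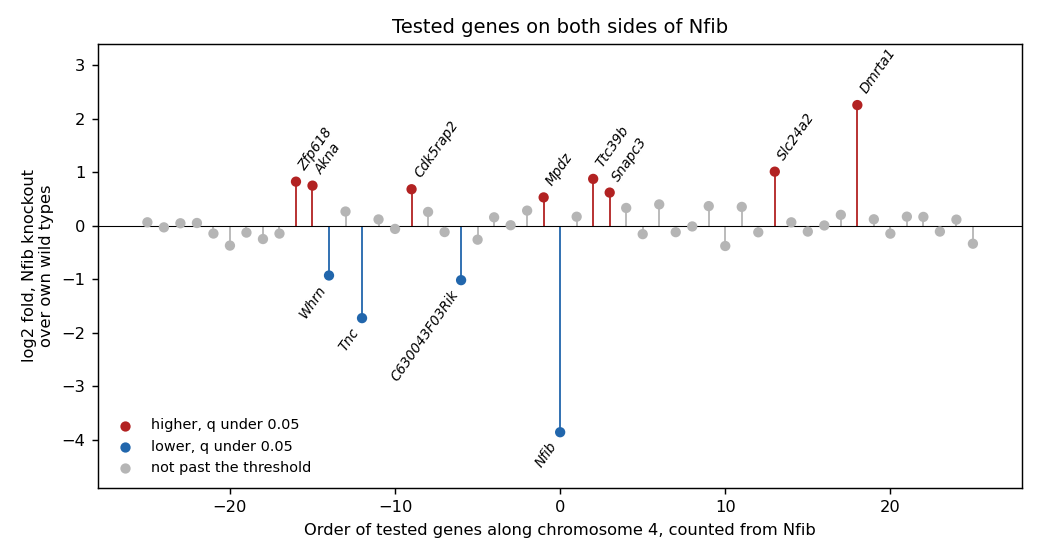
Log2 fold of the Nfib knockout average over its own wild types (vertical axis) for the 25 tested genes on either side of Nfib, in their order along chromosome 4 (horizontal axis, counted from Nfib). Red and blue points are higher and lower at the authors' q under 0.05 and grey points did not pass it; 11 genes besides Nfib are coloured, from -1.73 for Tnc to 2.26 for Dmrta1.

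NFI proteins bind a palindrome, TTGGC and GCCAA with any 5 bases between them, and RefSeq promoter windows of build GRCm38.p6, from 250 bases before to 50 after a gene's start, were searched for it on both strands. Of 12422 tested single-gene rows 9211 had a window. The full palindrome was in 0 of 209 windows of higher genes, 0 of 280 of lower genes and 3 of 9211 of all tested genes, and in 0.0365% of all windows in the table. The inner palindrome, TGGC and GCCA with any 5 bases between them, lies within the full one and was in 3 of 209 higher genes (1.44%), 3 of 280 lower genes (1.07%), 0.923% of all tested genes and 0.807% of all windows. The shorter site TTGGCA was in 12.4% of higher and 15.4% of lower genes, against 13.1% of tested genes and 14.1% of all windows. The shares of called genes were thus near those of all tested genes. The 6 called genes with the inner palindrome are shown with 15 bases on either side, 5′ to 3′ on the strand of the gene and with the palindrome in capitals, because they are all its matches among called genes. The printed stretches lie, in the order of the lines, at chr16:85803246-85803288 (minus strand), chr6:17306286-17306328 (plus), chr16:63864267-63864309 (minus), chr4:136956987-136957029 (minus), chr9:83548105-83548147 (plus) and chr1:185454821-185454863 (plus).
Adamts1: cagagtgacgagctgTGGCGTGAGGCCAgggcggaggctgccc
Cav1: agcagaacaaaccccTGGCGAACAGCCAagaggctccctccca
Epha3: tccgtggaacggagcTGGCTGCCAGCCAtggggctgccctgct
Epha8: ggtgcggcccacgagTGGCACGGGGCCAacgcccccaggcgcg
Sh3bgrl2: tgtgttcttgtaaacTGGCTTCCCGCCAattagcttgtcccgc
Slc30a10: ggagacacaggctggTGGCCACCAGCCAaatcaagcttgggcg

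Among these 6 genes, the protease gene Adamts1, the caveolin gene Cav1 and Epha8 were lower, with log2 folds of -1.04, -1.20 and -1.01. Epha3, Sh3bgrl2 and the metal transporter gene Slc30a10 were higher, at 0.52, 1.01 and 0.95. Slc30a10 stood at 17.2 FPKM in the knockouts against 8.86 and 11.0, and all 6 kept their direction against the Nfia-line wild types. A match is a description of the letters and not a binding site.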

How the data were processed

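RNA of microdissected, snap-frozen neocortex was extracted with Trizol and made into libraries with a TruSeq RNA kit, per the labels' protocols. The submitters' processing notes name CASAVA 1.8.2, TopHat2 2.0.10, Cufflinks, Cuffdiff 2.1.1 and build mm9, without parameters. The deposited table holds the authors' FPKM averages per group and, for the knockouts against their own wild types, the authors' log2 fold, p-values and q-values. The q-values equalled a Benjamini-Hochberg adjustment of 13729 deposited p-values under 1 to within 5.2e-07. Since no value per library was given, no test was run and leave-one-out and paired fits were not possible.

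From the FPKM values, log2 folds were computed with a pseudocount of 0.1 FPKM in Python 3.11.15 with pandas 2.3.3 and numpy 2.4.6, and the steps were tested on simulated data. Rows at 1 FPKM or more in either group were kept, 2 rows listed at 0 and above 50 FPKM were dropped, and 27 rows with a p of 1 or none were not counted as tested. A call was a q-value under 0.05. Of 49 gene lists, the text names up to 5 called members in each direction with the largest fold, or up to 2 abundant members where none was called. It also names the NFI genes, called factors and ligands that reversed against the Nfia-line wild types, and the 12 largest rises and falls with the same direction against both wild types. Other named genes, among them markers not past the threshold, were chosen after their values were seen. Members and lists were chosen with earlier results of these data known. Gene order and promoters are from RefSeq, GRCm38.p6, with no coordinate carried over from mm9. Alternatives were other q, fold and FPKM thresholds, pseudocounts and controls. Some items are not reported here.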

Additional observations from a re-analysis of the deposited data

How the results depend on the processing

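Counts of calls in the Nfib knockouts stayed within 1.5 times of the 280 higher and 403 lower genes without the filter on low values, with rows listed at 0 kept, with rows of more than 1 gene left out, and for genes keeping their direction against the Nfia-line wild types or the mean of both wild types. Genes that RefSeq places on an autosome, a count added after seeing the data, stayed so too. The rows listed at 0 and above 50 FPKM and those of more than 1 gene held no call, so these settings left both counts unchanged. The mean of both wild types includes the own wild types, so keeping direction against it is partly built in. The fold against the Nfia-line wild types uses the same knockout average, so keeping direction there is partly built in too. At q under 0.01 there were 158 higher and 258 lower genes, at a log2 fold of at least 1 in size 35 and 168, and at 5 FPKM or more 220 lower. At 1.5-fold or more against each wild type, also added later, there were 62 and 133. Of 250 genes named by the rule or in the text, no called gene reversed with pseudocounts of 0.01 or 1 FPKM or with the fold of the authors' deposited table. Against the Nfia-line wild types 21 of the called genes among them reversed, and the cause was not tested. Their log2 folds were then -0.21 for Bmpr2, -0.0019 for Cdk6, 0.26 for Col1a1, 0.23 for Col1a2, 0.11 for Dcn, 0.87 for Fezf1, -0.35 for Grin2b, -0.034 for Kcnq3, 0.60 for Lhx9, 0.077 for Nr2f2, 0.43 for Pla2g7, 0.60 for Slit3, 0.42 for Gja1, 0.28 for Zic2, 0.051 for Snhg11 and 0.044 for Spock3. Sex-linked genes came to -0.91 for Xist, 5.49 for Ddx3y, 6.35 for Eif2s3y, 5.44 for Kdm5d and 4.40 for Uty, and against the mean of both wild types Ddx3y came to 0.029 and Uty to 0.0011. Medians of 22 of 49 lists moved by over 0.13 against the Nfia-line wild types, of 12 against the mean of both, of 18 at 5 FPKM or more, of 7 with all members and of 4 at a pseudocount of 1.

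No paired analysis was possible because the columns hold 1 average per group and carry no replicate number. Leaving out single libraries was not run for the same reason, so it is not known which calls rest on 1 library. With 2 own wild types, the spread within groups rests on the authors' model. The depth of each library is unknown.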

Other observations

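Further called genes belong to none of the lists and were chosen after their values were seen. Igfbp3, which binds insulin-like growth factors, was lower in the Nfib knockouts at 7.17 FPKM, against 22 in own and 19.7 in Nfia-line wild types. Mest, an imprinted gene of embryonic tissue, was higher at 98.4 FPKM, against 48.6 and 53.3. Prex1, an activator of Rac GTPases, was higher at 54.6 FPKM, against 23.8 and 32.3, and Sulf1, which trims heparan sulfate, stood at 7.02 FPKM, against 2.96 and 3.95. Tenm2, a teneurin adhesion gene, was lower at 7.84 FPKM, against 19.7 and 16. For all of these genes the knockout average lay outside both wild-type averages.

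Tuba1a, a tubulin gene of young neurons, is listed at 0 in the knockouts and at 5446 and 5153 FPKM in the 2 wild-type averages. It was left out, and no fold is given.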
